A study of Homo sapiens with 9 samples.

Results

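The 9 genes described here make up the core of the MHC class I pathway and were followed through HCT116 cells with and without the long noncoding RNA CRLM1. They were taken by symbol from the 31558 genes of the deposited count table, and all 9 were listed there. They are the heavy chains HLA-B, HLA-C, HLA-E and HLA-F, the light chain B2M, the peptide transporter subunits TAP1 and TAP2, the loading factor TAPBP (tapasin) and the transactivator NLRC5. No measured value of the files was part of the rule, but the 9 genes were chosen with earlier results of these data known. HCT116 is a human colorectal cancer (CRC) cell line, and its polyA RNA was sequenced in 3 groups with 3 biological replicates each. One group overexpressed CRLM1 (CRLM1-OE), another carried the antisense control (Anti) and the last carried the empty control plasmid (Ctrl). CRLM1-OE was set against both controls to find genes regulated by CRLM1, and the controls were also compared with each other. The study's methods describe stable CRLM1 expression from the lentiviral vector pTSB-GFP-puro under puromycin selection, while its account of the sequencing speaks of transfected cells, and which holds for these samples is not stated. Whether the replicates were separate transfections or transductions is not given in the sources used here, so the p-values measure the spread between these samples only.

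MHC class I molecules show fragments of a cell's own proteins to CD8+ T cells and natural killer cells. The proteasome and cytosolic peptidases make the peptides, the TAP1-TAP2 dimer pumps them into the endoplasmic reticulum, and tapasin holds an empty heavy chain with B2M beside the transporter until a peptide fits. NLRC5 raises transcription of heavy chains, B2M and TAP1 through a composite promoter module, and interferons raise the same genes through response elements in their promoters.

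Depth was similar in all samples, with total counts between 33302292 and 44514692, and the 9 genes together took between 0.236% and 0.248% of all counts. Counts on CRLM1 were 38704, 32751 and 35726 in CRLM1-OE, 0 in each Ctrl sample and between 1540 and 1951 in Anti. The epithelial markers EPCAM, KRT8 and KRT18 were abundant, whereas VIL1, CDX1, CDH17, GPA33 and LGR5, markers of differentiated or stem-like colon epithelium, had at most 14 counts in any sample. CDX2, an intestinal identity factor of the same list, had 456 to 607 counts. The leukocyte marker PTPRC had at most 2 counts, whereas CD68, of the same list, had 107 to 167 counts. Levels are given as CPM, counts scaled to the library by edgeR's TMM factors, unless FPKM is named. The summed level of the 7 listed leukocyte genes of 12 was 5.12 to 5.24 CPM in CRLM1-OE, 4.06 to 4.86 in Ctrl and 3.90 to 4.10 in Anti, of which CD68 made up a mean of 3.88, 3.60 and 2.97 CPM. For the 9 listed stromal genes of 10 the sums were 29.4 to 32.4, 21.8 to 24.1 and 19.4 to 21.6 CPM, and for 11 colon epithelial genes 9048 to 9126, 11174 to 11280 and 9235 to 9306 CPM. The part of these shifts in the results below was not tested. All samples were of the HCT116 line. In bulk, fewer cells expressing a gene and less RNA per cell cannot be told apart.

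Of the 9 genes, 7 lie in or next to the MHC on chromosome 6. In GENCODE version 44 on GRCh38, HLA-B spans chr6:31353872-31367067, HLA-C chr6:31268749-31272130, TAP1 chr6:32845209-32853816, TAP2 chr6:32821833-32838739 and TAPBP chr6:33299694-33314284, all on the reverse strand. HLA-E (chr6:30489509-30494194) and HLA-F (chr6:29722775-29738528) lie on the forward strand. B2M (chr15:44711358-44718851) and NLRC5 (chr16:56989485-57083531) are forward-strand genes of other chromosomes. In this annotation TAP1 is overlapped over its whole length of 8608 bp by a form of PSMB9 on the opposite strand, HLA-F shares 11928 bp with HLA-F-AS1 on the opposite strand, and TAP2 lies inside a same-strand gene (ENSG00000250264). Shorter overlaps with other genes touch HLA-B, TAPBP and NLRC5, and HLA-C, HLA-E and B2M have none. Use of strand in counting is not given in the sources used here, so the values of TAP1, TAP2 and HLA-F may hold reads of these neighbours. HLA-B and HLA-C carry long near-identical stretches and are highly polymorphic, so their levels are uncertain in the same way, since uniquely mapped reads alone were counted against the reference alleles.

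Upstream sequences of 6 of these genes are shown because the known regulators of the pathway, whose own values are given further on, act through them. RefSeq sequence of 250 bases before the gene start was found for 7 of the 9 genes on GRCh38.p14, and HLA-E and NLRC5 are named only. Capitals mark matches, on either strand, to the letters of 4 known elements: the interferon response element (GAAA, any 2 bases, GAAA), the Y box (CCAAT), the X2 box (TGACG) and a kappa B element (GGG, any 2 bases, TT, any base, CC). These letters were found in 3.02%, 32.0%, 21.2% and 5.07% of 35116 promoter windows of the same length, in that order. A match is a description of the letters and not a site shown to be bound, and the sequences are those of the reference genome and not of the HCT116 alleles. RefSeq and GENCODE place several starts differently, so part of some windows lies within the GENCODE span. The windows of HLA-B and HLA-F lie wholly within it. The windows are chr6:31357180-31357429 (HLA-B), chr6:31272093-31272342 (HLA-C), chr6:32853705-32853954 (TAP1), chr6:32838740-32838989 (TAP2) and chr6:33314079-33314328 (TAPBP), all reverse strand, and chr15:44711267-44711516 (B2M, forward strand), each written 5′ to 3′. For TAP1, which has another RefSeq window (chr6:32852762-32853011) with no match to the 4 elements, the window that holds matches is shown.
HLA-B: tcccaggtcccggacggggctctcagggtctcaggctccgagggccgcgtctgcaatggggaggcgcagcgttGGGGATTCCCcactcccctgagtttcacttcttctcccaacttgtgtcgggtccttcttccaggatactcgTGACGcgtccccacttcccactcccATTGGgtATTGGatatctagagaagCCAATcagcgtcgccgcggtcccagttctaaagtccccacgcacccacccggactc
HLA-C: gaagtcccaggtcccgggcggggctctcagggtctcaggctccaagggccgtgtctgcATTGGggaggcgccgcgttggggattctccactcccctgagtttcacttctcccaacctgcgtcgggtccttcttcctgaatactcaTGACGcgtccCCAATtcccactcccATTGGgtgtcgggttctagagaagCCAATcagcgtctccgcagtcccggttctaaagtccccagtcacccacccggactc
B2M: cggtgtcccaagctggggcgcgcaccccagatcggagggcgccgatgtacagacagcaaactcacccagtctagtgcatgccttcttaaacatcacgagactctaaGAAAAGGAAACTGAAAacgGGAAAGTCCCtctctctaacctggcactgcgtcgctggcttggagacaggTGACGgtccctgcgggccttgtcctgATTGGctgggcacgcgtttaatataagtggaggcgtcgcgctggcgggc
TAP1: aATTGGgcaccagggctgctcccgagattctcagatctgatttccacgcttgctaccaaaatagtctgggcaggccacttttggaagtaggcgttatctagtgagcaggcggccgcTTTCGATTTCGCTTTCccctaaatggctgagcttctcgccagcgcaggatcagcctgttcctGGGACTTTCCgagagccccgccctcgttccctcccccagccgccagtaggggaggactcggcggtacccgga
TAP2: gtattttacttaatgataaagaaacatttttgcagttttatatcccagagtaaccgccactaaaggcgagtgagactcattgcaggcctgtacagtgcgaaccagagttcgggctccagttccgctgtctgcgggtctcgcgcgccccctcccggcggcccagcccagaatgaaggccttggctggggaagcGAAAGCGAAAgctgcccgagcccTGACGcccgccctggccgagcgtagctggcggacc
TAPBP: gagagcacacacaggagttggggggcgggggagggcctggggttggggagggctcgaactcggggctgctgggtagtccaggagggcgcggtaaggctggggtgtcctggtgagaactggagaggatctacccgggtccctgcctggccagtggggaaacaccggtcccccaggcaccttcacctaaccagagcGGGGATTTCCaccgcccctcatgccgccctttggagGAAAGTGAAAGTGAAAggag
B2M, TAP1 and TAPBP each held 2 overlapping interferon response letters and a kappa B match, and TAP2 held 1 interferon response match. In TAPBP the interferon letters lay between 20 and 5 bases before the start. HLA-B and HLA-C had no match to the interferon letters in this window, and held the X2 letters together with 3 and 4 matches to the Y letters. B2M also held the X2 letters, with 1 Y match. TAP2 held the X2 letters without a Y match, TAP1 held 1 Y match without the X2 letters, and HLA-B held 1 kappa B match. Exact letters alone were searched, so a variant of an element would not be marked, and its absence is not shown. The HLA-F window, not printed, held 1 interferon match and 2 Y matches, with no X2 or kappa B match.

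Of the core genes followed here, HLA-B, HLA-C, B2M and HLA-E had the most abundant mRNAs. Per length, in FPKM, the core genes ranked HLA-B, HLA-C, B2M, HLA-E, TAP1, TAPBP, HLA-F, TAP2 and NLRC5 in each of the 3 groups. The samples of neighbours in this order did not overlap within any group. The chaperone CALR, listed further on with peptide loading, had a higher mean than HLA-B in each group, at 771 FPKM in Ctrl. In Ctrl the levels were 331 ± 7.99 FPKM for HLA-B, 299 ± 0.789 for HLA-C, 207 ± 5.22 for B2M and 125 ± 1.59 for HLA-E (SD, n = 3). TAP1 stood at 30.4 ± 0.478 FPKM, TAPBP at 21.7 ± 0.361, HLA-F at 13.9 ± 1.03 and TAP2 at 3.29 ± 0.110 (SD, n = 3). NLRC5 was near the lower end of what was measured, at 0.377 ± 0.0404 FPKM (SD, n = 3), which rests on 96 to 144 counts per sample.

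Among the classical heavy chains, HLA-B had 553, 553 and 542 CPM in CRLM1-OE, 619, 607 and 593 in Ctrl and 578, 568 and 584 in Anti. HLA-B was thus lowest in CRLM1-OE and highest in Ctrl, with no overlap between groups on this scale. In FPKM, which follows library totals, its groups overlapped, at 318 to 330, 324 to 340 and 324 to 333. HLA-C had 629, 635 and 634 CPM in CRLM1-OE, 669, 673 and 672 in Ctrl and 610, 609 and 615 in Anti. Here the Anti samples were the lowest, and replicates lay within 6 CPM of each other.

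HLA-E, the nonclassical heavy chain that presents leader peptides to natural killer cell receptors, had 369, 371 and 378 CPM in CRLM1-OE, 387, 382 and 387 in Ctrl and 312, 303 and 306 in Anti. All 3 Anti samples were well below the other 6. The order of the other groups turned with the scale, since in FPKM HLA-E was 130 to 132 in CRLM1-OE and 123 to 126 in Ctrl. HLA-F, a nonclassical heavy chain that can reach the surface without peptide, had 28.8, 30.1 and 27.7 CPM in CRLM1-OE, 31.3, 31.4 and 35.5 in Ctrl and 24.6, 27.7 and 28.4 in Anti. The CRLM1-OE and Anti samples of HLA-F overlapped, and both groups lay below Ctrl.

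B2M, the light chain of every class I molecule, had 566, 566 and 565 CPM in CRLM1-OE, 575, 606 and 577 in Ctrl and 593, 598 and 587 in Anti. Its CRLM1-OE samples were the lowest on this scale, and its Ctrl and Anti samples overlapped. In FPKM the Ctrl samples of B2M were the lowest, at 204 to 213 against 215 to 219 in CRLM1-OE and 217 to 221 in Anti.

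TAP1 had 88.8, 92.1 and 86.1 CPM in CRLM1-OE, 107, 105 and 107 in Ctrl and 103, 104 and 108 in Anti. TAP2, its partner in the transporter, had 24.8, 24.7 and 24.6 CPM in CRLM1-OE, 24.7, 24.1 and 23.3 in Ctrl and 30.0, 31.0 and 28.3 in Anti. TAPBP had 84.1, 83.5 and 85.8 CPM in CRLM1-OE, 109, 109 and 106 in Ctrl and 107, 112 and 111 in Anti. TAP1 and TAPBP were therefore lowest in CRLM1-OE and overlapped between the controls, whereas TAP2 was set apart by its high Anti samples.

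NLRC5 had 4.31, 4.25 and 3.76 CPM in CRLM1-OE, 3.40, 2.80 and 3.03 in Ctrl and 3.56, 5.03 and 4.49 in Anti. Both inserts lay above the empty plasmid in every sample, and the Anti samples spread the most.

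**Figure D1:**
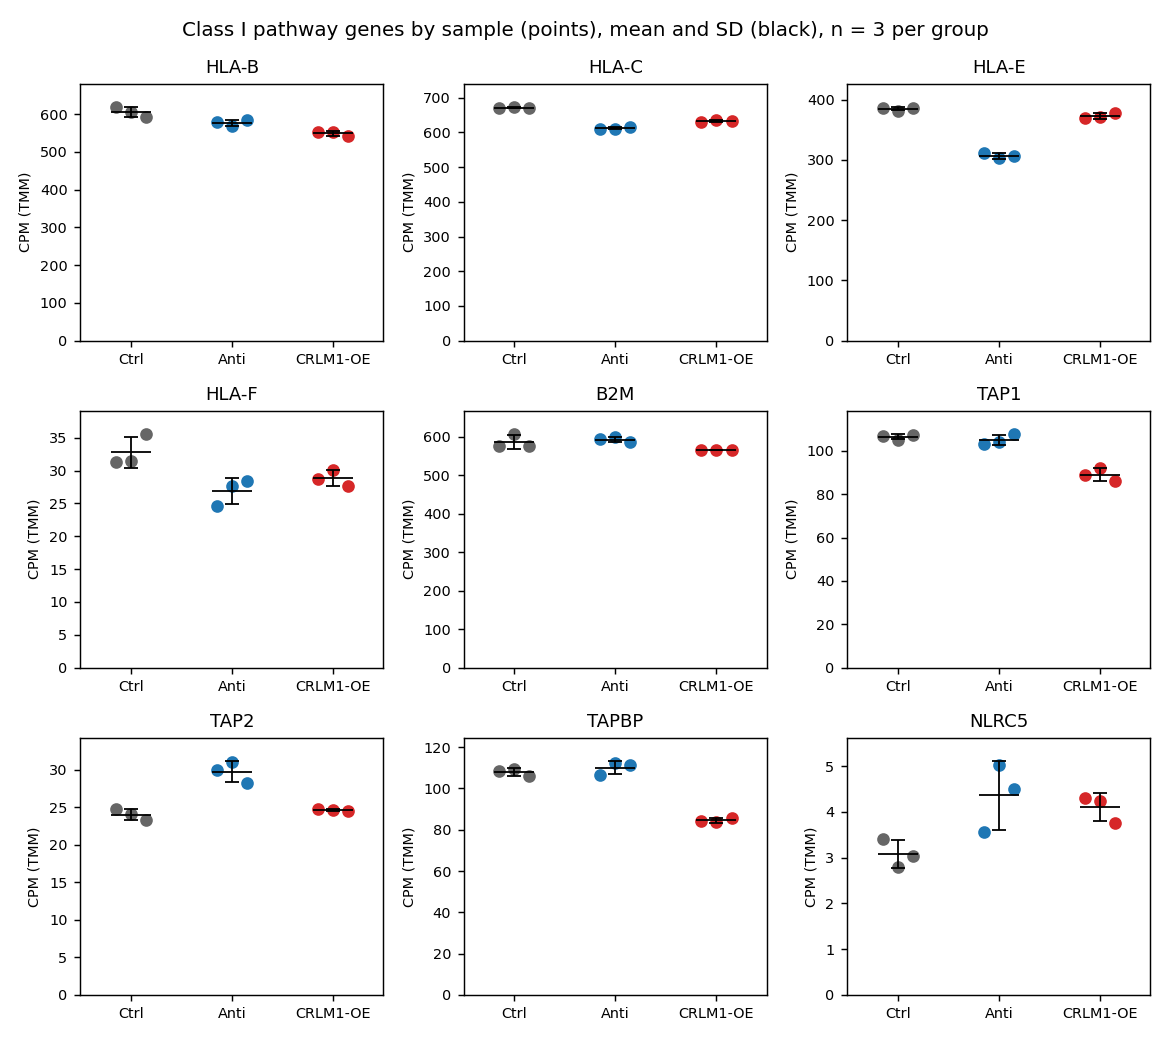
Level of each of the 9 genes in every sample, in CPM scaled by TMM factors (vertical axes from 0), for Ctrl, Anti and CRLM1-OE, with points for samples and black bars for the mean and SD of 3 replicates. TAP1 and TAPBP are lowest in CRLM1-OE, HLA-E is lowest and TAP2 highest in Anti, and on this scale most other shifts are a small part of the level.

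In the comparison of CRLM1-OE with Ctrl, TAPBP and TAP1 had the largest decreases of the 9 genes with either scaling. TAPBP fell by 21.7% (log2 fold change -0.35, SE 0.032, adjusted p 2.19e-27) and TAP1 by 16.4% (log2 fold change -0.26, SE 0.032, adjusted p 3.06e-15). HLA-B, HLA-C and HLA-F were also lower, by log2 -0.14 (SE 0.021, adjusted p 1.08e-10), -0.085 (SE 0.021, adjusted p 0.000164) and -0.18 (SE 0.049, adjusted p 0.00101), and NLRC5 was higher by 0.41 (SE 0.13, adjusted p 0.00754). In all, 5 of the 9 genes passed an adjusted p of 0.05 as lower and 1 as higher, against 16.8% and 15% of the 29846 genes tested. Most genes of such depth passed, since 67.9% of the 11702 genes that averaged 100 or more counts did so in either direction. B2M (-0.050, adjusted p 0.0532), HLA-E (-0.046, adjusted p 0.118) and TAP2 (0.038, adjusted p 0.642) did not pass, and B2M passed as lower without Ctrl replicate 1 (-0.055, adjusted p 0.0232), with all 9 samples in 1 fit (-0.051, adjusted p 0.0392) and under a replicate block (-0.050, adjusted p 0.027). None of the 9 changed by 2-fold in edgeR, the threshold of the study, which 2.5% of all genes passed as higher and 0.915% as lower. Nor did any do so in the 15 alternatives, DESeq2 and limma included, and 8 of the 9 had an unadjusted p under 0.05.

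The small differences with Ctrl depended on how the libraries were scaled. TMM factors were 1.05 in CRLM1-OE and between 0.945 and 0.955 in Ctrl, and on library totals the log2 fold changes of the 9 genes were higher by 0.14. On that scaling HLA-C turned from lower to higher (0.056, adjusted p 0.0201), HLA-E and B2M passed as higher by 0.095 (adjusted p 0.000132) and 0.091 (adjusted p 6.4e-05), HLA-B (-0.00097, adjusted p 1.00) and HLA-F (-0.040, adjusted p 0.567) no longer passed, and TAP2 passed as higher by 0.18. TAP1 (-0.12, adjusted p 0.000948) and TAPBP (-0.21, adjusted p 2.63e-10) remained lower, and these 2 passed in the same direction in all 15 alternative analyses. The median over the 9 genes was -0.085 with TMM factors and 0.056 with library totals, beside medians of -0.048 and 0.094 over these 11702 genes. The call of HLA-F rested on Ctrl replicate 3 (-0.10, adjusted p 0.184 without it) and that of NLRC5 on Ctrl replicate 2 (0.35, adjusted p 0.0516 without it).

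Against Anti, TAPBP and TAP1 were again lower in CRLM1-OE, now with TAP2. TAPBP fell by 23.1% (log2 fold change -0.38, SE 0.029, adjusted p 6.08e-37), TAP1 was lower (-0.23, SE 0.029, adjusted p 1.14e-14) and TAP2 fell by 16.9% (-0.27, SE 0.051, adjusted p 7.71e-07). HLA-E was higher by 21.7% (0.28, SE 0.021, adjusted p 6.86e-42) and HLA-C by 3.72% (0.053, SE 0.018, adjusted p 0.0109). These 5 genes passed in the same direction in all 15 alternatives. HLA-B (-0.067, adjusted p 0.000954) and B2M (-0.063, adjusted p 0.00191) also passed as lower, but lost the call on library totals, where they were at -0.0084 and -0.0045. HLA-B also lost it without CRLM1-OE replicate 3 (-0.044, adjusted p 0.0551), and B2M without Anti replicate 2 (-0.047, adjusted p 0.0668). HLA-F (0.11, adjusted p 0.0936) and NLRC5 (-0.078, adjusted p 0.648) did not pass. HLA-F passed as higher in 5 of the 15 alternatives, among them the fits without CRLM1-OE replicate 3 (0.15, adjusted p 0.0275), Anti replicate 2 (0.14, adjusted p 0.0469) or Anti replicate 3 (0.14, adjusted p 0.0448). The count was 5 lower and 2 higher of 9, against 18.5% and 17.1% of the 30183 genes tested, and 74.2% of the 11702 genes passed in either direction. No gene of the 9 reached 2-fold in edgeR or in an alternative, against 2.56% lower and 3.09% higher of all genes, and 8 of the 9 had an unadjusted p under 0.05. Both comparisons share the CRLM1-OE samples, so the lower TAP1 and TAPBP against Ctrl and against Anti are not independent results.

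The controls themselves differed in the heavy chains and in TAP2. In Anti against Ctrl, HLA-E fell by 21.7% (log2 fold change -0.35, SE 0.023, adjusted p 1.13e-50) and HLA-C by 10.5% (-0.16, SE 0.021, adjusted p 1.14e-13), while TAP2 rose by 21.6% (0.28, SE 0.053, adjusted p 1.07e-06). These 3 passed in the same direction in all 15 alternatives. HLA-F was lower by 0.31 (SE 0.051, adjusted p 1.17e-08), with 13 of 15 alternatives passing, and NLRC5 higher by 0.47 (SE 0.13, adjusted p 0.0024), with 12 of 15, where the fit without Anti replicate 2 gave 0.35 (adjusted p 0.077). HLA-B was lower with TMM factors (-0.098, adjusted p 2.32e-05), and stood at 0.0074 with library totals (adjusted p 0.836). TAP1 (-0.047, adjusted p 0.332), TAPBP (0.0030, adjusted p 0.984) and B2M (-0.0093, adjusted p 0.804) did not pass, though on library totals TAPBP (0.11, adjusted p 0.00187) and B2M (0.096, adjusted p 1.67e-05) passed as higher. Of the 9 genes 4 passed as lower and 2 as higher, against 12.2% and 11.5% of 29714 genes tested, and 53.9% of the 11702 genes passed in either direction. None reached 2-fold in edgeR or in an alternative, which 0.38% of all genes did as lower and 0.683% as higher, and 6 of the 9 had an unadjusted p under 0.05.

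**Figure D2:**
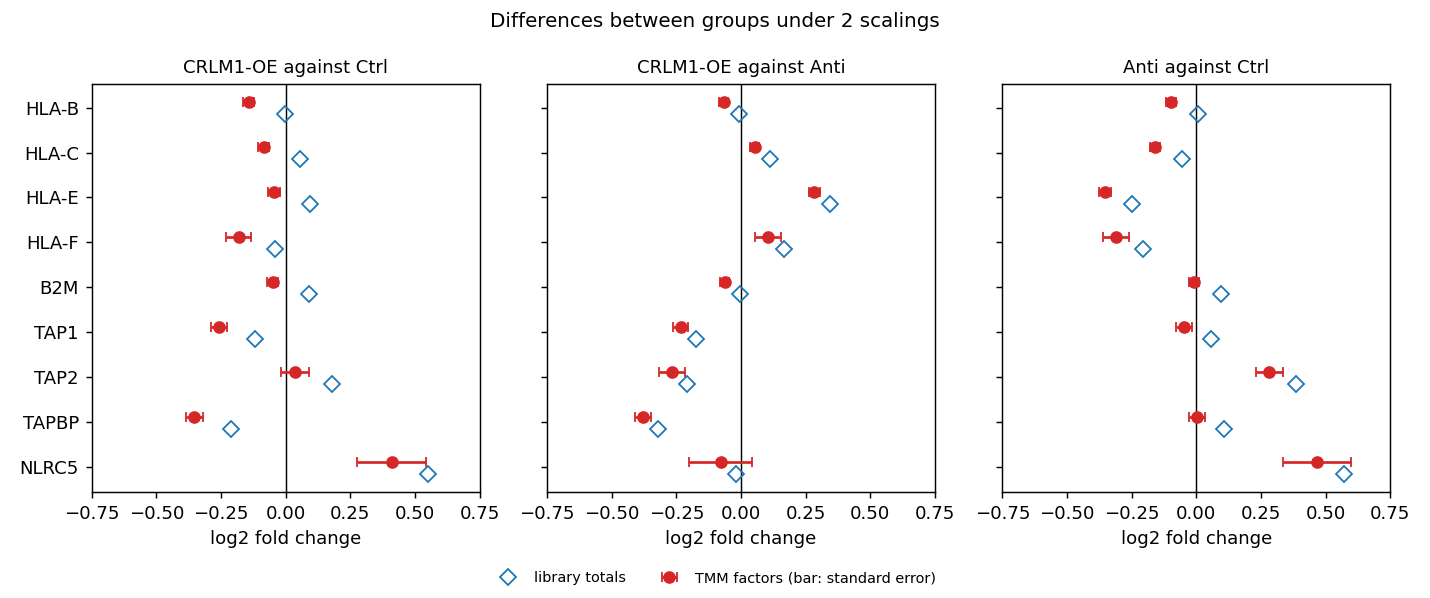
Log2 fold change of each of the 9 genes in the 3 comparisons, with TMM factors (red, bars are the standard error) and with library totals (blue diamonds). TAP1 and TAPBP lie below 0 against both controls under both scalings, whereas HLA-C, HLA-E and B2M against Ctrl lie on opposite sides of 0 under the 2 scalings.

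Ratios between genes of the same sample do not depend on library scaling. The TAP1 to TAP2 ratio of FPKM was 9.04 to 9.63 in Ctrl, 7.31 to 7.79 in CRLM1-OE and 7.01 to 7.94 in Anti. Both inserts thus lay below Ctrl with no overlap. The TAPBP to TAP1 ratio was 0.640 to 0.703 in CRLM1-OE, 0.696 to 0.733 in Ctrl and 0.729 to 0.763 in Anti, so that CRLM1-OE overlapped Ctrl. HLA-E made up 16.8% to 17.2% of the summed FPKM of the 4 heavy chains in CRLM1-OE, 16.1% to 16.4% in Ctrl and 14.1% to 14.5% in Anti. B2M per summed heavy chain was 0.279 to 0.281 in CRLM1-OE, 0.262 to 0.279 in Ctrl and 0.295 to 0.306 in Anti. With 3 samples in each group, the smallest two-sided p of an exact permutation test is 0.1, and none is given for these ratios.

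**Figure D3:**
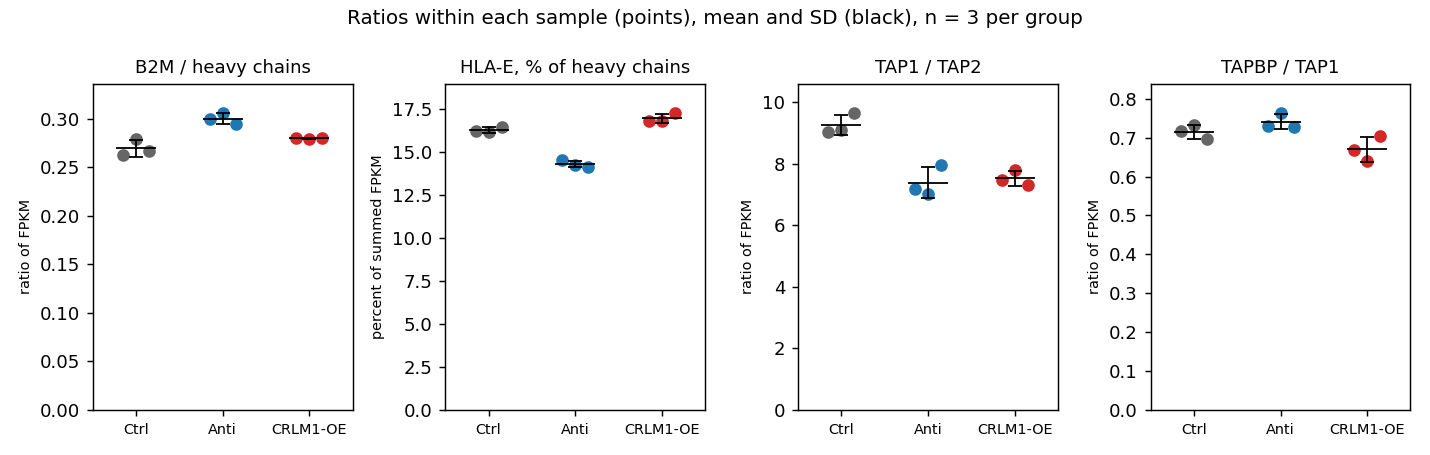
Ratios of FPKM within each sample (points, with mean and SD of 3 replicates in black) for B2M to the 4 summed heavy chains, HLA-E as a percent of the summed heavy chains, TAP1 to TAP2, and TAPBP to TAP1. TAP1 to TAP2 is highest in Ctrl at 9.04 to 9.63, and the HLA-E share is lowest in Anti at 14.1% to 14.5%.

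Other genes of peptide loading and trimming had larger changes than most of the 9. Of 8 such genes, 6 passed as lower and none as higher in CRLM1-OE against Ctrl (median log2 fold change -0.66, beside 0.017 over all genes tested), 7 and none against Anti (median -0.83, beside -0.023), and 7 passed as higher and none as lower in Anti against Ctrl (median 0.45, beside 0.0047). No further gene of the list had an unadjusted p under 0.05 in these comparisons. Over the 11702 genes that averaged 100 or more counts, 67.9%, 74.2% and 53.9% passed in either direction, in that order. The chaperones CALR and CANX, which fold heavy chains, were lower against Ctrl by log2 -0.67 (SE 0.018) and -0.65 (SE 0.021), and against Anti by -0.85 (SE 0.015) and -0.74 (SE 0.018). PDIA3, the thiol oxidoreductase bound to tapasin, was at -0.62 (SE 0.022) and -0.82 (SE 0.019). These 3 also serve general glycoprotein folding, as does UGGT1, the folding sensor that returns glycoproteins to calreticulin, at -0.98 (SE 0.039) and -1.38 (SE 0.035). ERAP1, the aminopeptidase that trims peptides in the endoplasmic reticulum, had 8.12 to 9.49 CPM in CRLM1-OE, 14.9 to 16.4 in Ctrl and 21.7 to 24.7 in Anti, a log2 fold change of -0.87 (SE 0.077, adjusted p 1.61e-28) against Ctrl and -1.41 (SE 0.069, adjusted p 5.44e-91) against Anti. The groups of ERAP1 did not overlap, and Anti was highest. TAPBPL, a tapasin-like peptide editor, was called lower on at most 23 counts per sample, and lost the call against Ctrl on library totals.

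The proteasome genes shifted less. Among the immunoproteasome subunits and the PA28 activator, 4 of 6 passed as lower and 2 as higher against Ctrl, 3 and 2 against Anti, and 2 and 1 in Anti against Ctrl. Beside the counts of this paragraph, 67.9%, 74.2% and 53.9% of the 11702 genes passed in either direction in these comparisons. With library totals the counts against Ctrl were 1 lower and 2 higher, PSMB10 being the gene that stayed lower. PSMB10, an inducible catalytic subunit, had 2.90 to 3.56 CPM in CRLM1-OE, 5.58 to 6.47 in Ctrl and 6.74 to 9.06 in Anti (log2 fold change -0.90, SE 0.12, against Ctrl and -1.30, SE 0.11, against Anti). PSMB9, which shares its promoter region with TAP1, was at -0.17 (adjusted p 0.0103) against Ctrl and -0.12 (adjusted p 0.084) against Anti, and did not pass against Ctrl on library totals. PSMB8 was higher against both controls but had at most 45 counts in any sample. Of 6 cytosolic peptidases, 5 passed as lower and 1 as higher against Ctrl and 4 and 1 against Anti, and on library totals 2 and 1 against Ctrl. Of the 4 constitutive subunits and partners, 3 passed as lower and none as higher against Ctrl, of which PSME3 was the largest at -0.54 (SE 0.031), while on library totals 2 passed as lower and PSMB6 as higher.

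The genes that drive class I transcription did not move one way. Of 15 interferon signalling genes, 8 passed as lower and 5 as higher against Ctrl (4 and 5 on library totals), and 6 and 4 against Anti. Of the 11702 genes, 67.9% passed in either direction against Ctrl and 74.2% against Anti. IRF1, which binds the interferon response element, had 54.0 to 56.0 CPM in CRLM1-OE, 83.5 to 86.2 in Ctrl and 76.8 to 79.7 in Anti. IRF1 was thus lower against Ctrl by log2 -0.62 (SE 0.036), and the receptor chain IFNGR2 by -0.86 (SE 0.039). STAT2 and the kinase TYK2, both of the type I interferon pathway, moved the other way, higher by 0.78 (SE 0.062) and 0.68 (SE 0.053) against Ctrl. Each of these 4 genes passed in the same direction in all 15 alternatives against Ctrl and against Anti.

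Of 12 promoter factors, 8 passed as lower and 2 as higher against Ctrl (6 and 3 on library totals), 6 and 2 against Anti (5 and 5 on library totals), and 5 and 2 in Anti against Ctrl. Of the 11702 genes, 67.9%, 74.2% and 53.9% passed in either direction in these comparisons, in that order. NFKB1, whose product binds kappa B letters like those shown above, was lower by log2 -0.76 (SE 0.046) against Ctrl and -1.13 (SE 0.042) against Anti. RFX5, a subunit of the RFX complex at the X box, was lower by -0.31 (SE 0.047) and -0.44 (SE 0.045), and NFYA, a subunit of the factor that binds CCAAT letters, was higher by 0.21 (adjusted p 0.000213) and 0.20 (adjusted p 0.000245), though its CRLM1-OE samples overlapped Ctrl (26.4 to 33.0 against 24.2 to 27.0 CPM). NFYC, another subunit of that factor, was lower by -0.30 (adjusted p 2.3e-12) and -0.097 (adjusted p 0.0459), and lost the call against Anti on library totals (adjusted p 0.529). The transactivator of class II genes, CIITA, had at most 52 counts in any sample.

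**Figure D4:**
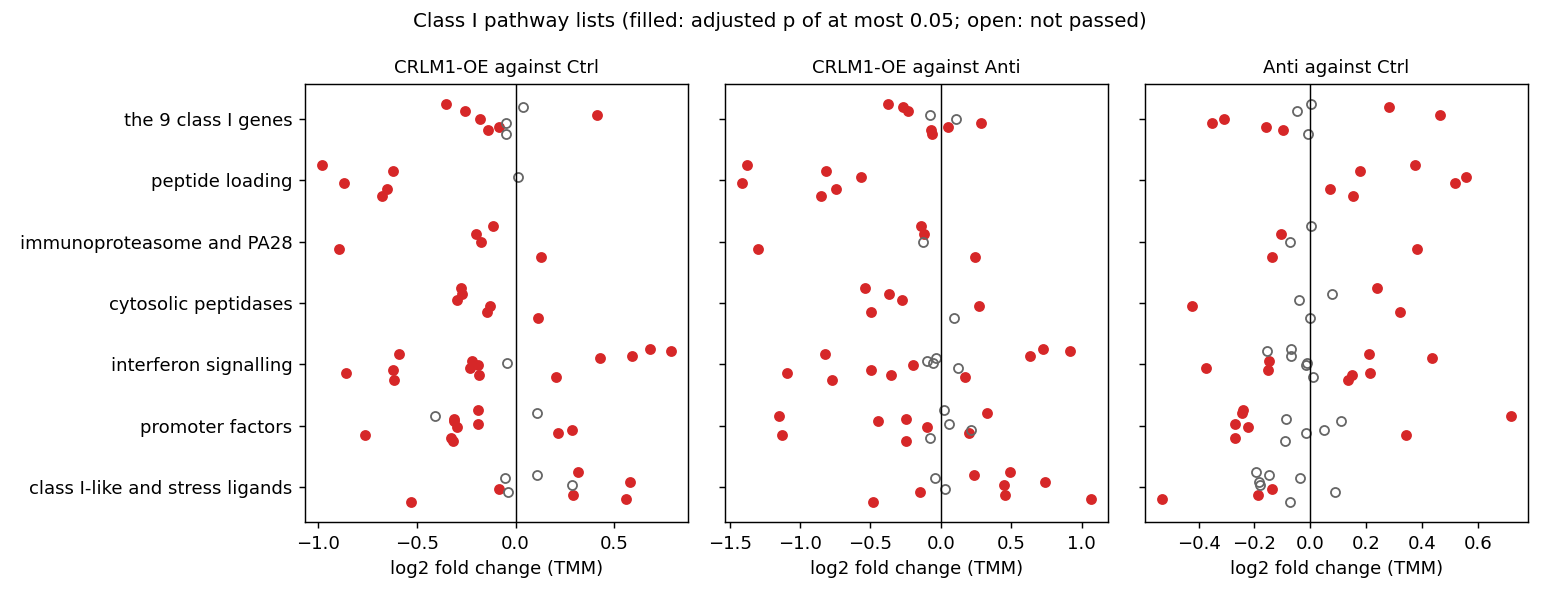
Log2 fold change (TMM factors) of the 9 class I genes and of 6 related gene lists in the 3 comparisons, each point a gene with at least 100 counts in at least 1 sample, filled where its adjusted p was at most 0.05. Peptide loading genes lie furthest below 0 in CRLM1-OE and above 0 in Anti against Ctrl, while interferon signalling genes lie on both sides, and on library totals all points of the comparisons with Ctrl shift right by 0.14 and 0.10.

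Some, but not all, listed ligands of the natural killer receptor NKG2D were higher in CRLM1-OE. These ligands are class I-like but bind neither peptide nor B2M. Of 14 class I-like genes and stress ligands, 4 passed as higher and 2 as lower against Ctrl (6 and 1 on library totals) and 6 and 2 against Anti (8 and 1), and 3 passed as lower in Anti against Ctrl (1 on library totals). Against Ctrl, 8 did not pass. Over all genes tested, 15% passed as higher and 16.8% as lower against Ctrl, and 17.1% and 18.5% against Anti. In Anti against Ctrl, 12.2% of all genes passed as lower. MICA had 49.1 to 52.2 CPM in CRLM1-OE, 33.8 to 35.1 in Ctrl and 23.4 to 25.1 in Anti, which was higher by log2 0.56 (SE 0.043, adjusted p 2.11e-36) against Ctrl and 1.06 (SE 0.045, adjusted p 1.05e-120) against Anti. The 3 groups did not overlap, in the reverse order of ERAP1. MICB, RAET1L and ULBP3 were higher by 0.29 (SE 0.043), 0.58 and 0.32 against Ctrl. The ligands ULBP1, ULBP2, RAET1E and RAET1G did not pass as higher against Ctrl. ULBP1 had a mean of 14.9 CPM in CRLM1-OE and 15.6 in Ctrl. HFE, the iron regulator that does bind B2M, was lower by 0.53 (adjusted p 2.66e-05). HLA-G, a nonclassical heavy chain, had at most 6 counts per sample.

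Class I pseudogenes and class II genes were measured at low counts. HLA-K and HLA-V, class I pseudogenes, had at most 165 and 238 counts and were higher against Ctrl by log2 1.01 (SE 0.15) and 0.81 (SE 0.12), and against Anti by 1.53 (SE 0.16) and 1.29 (SE 0.13). They resemble the expressed heavy chains, so that reads may be shared. HLA-F-AS1, opposite HLA-F, did not pass against Ctrl (0.072, adjusted p 0.772) and was lower in Anti than in Ctrl (-0.60, adjusted p 0.00314), as HLA-F was. Of 12 class II genes tested against Ctrl, 3 passed as lower and 1 as higher, against 16.8% and 15% of all genes tested. Each of the class II genes that passed had at most 63 counts in any sample.

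By Pearson correlation of log2 CPM over the 9 samples, genes whose pattern was among the most like the mean of the 9 class I genes were RP11-78J21.7 (r = 0.979), ARFGAP3 (0.957), SMAD4 (0.955) and MTMR2 (0.949), among the 11617 genes of such depth outside the lists. The 9 class I genes did not share 1 pattern, since r between them ranged from -0.964 (HLA-E with TAP2) to 0.947 (TAP1 with TAPBP), so their mean describes no single gene. These values describe likeness only, since the 9 samples fall into 3 groups and share the scaling.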

How the data were processed

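RNA of HCT116 cells of 3 groups was sequenced by the authors as 151 nt pairs on an Illumina platform, after TRIZOL extraction and KAPA RNA HyperPrep libraries. The authors trimmed the reads, dropped those under 16 nt and aligned them with TopHat2 to GRCh38 (Gencode version 23), allowing 4 mismatches. Per gene, the authors deposited raw counts of reads that mapped uniquely, for 31558 genes. The authors also deposited FPKM values for 31268 genes, scaled for exon length and mapped fragments. The criterion for a listed gene and the use of strand are not given in the sources used here. Total counts were 33302292 to 44514692 per sample, and 3 counts correspond to 0.0674 to 0.0901 CPM, which covers counting error only.

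Samples were grouped by their labels. The main test was the quasi-likelihood test of edgeR 4.0.16 with TMM factors (R 4.3.3), fitted on the 6 samples of each comparison, without covariates, for every gene with at least 1 count, with Benjamini-Hochberg adjustment over all genes tested. A gene passed at an adjusted p of at most 0.05. Standard errors were derived from the log2 fold change and its F statistic. Adjusted p-values are from this test unless an alternative is named beside them.

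The alternatives were RLE factors, library totals, filterByExpr, at least 10 counts in every sample, DESeq2 1.42.0, limma 3.58.1 with trend on log2(FPKM + 0.1) and log2(FPKM + 1), all 9 samples in 1 fit, a block for the replicate number, fits without each replicate in turn, and the 2-fold rule of the study, which changes counts of calls alone. The tests were checked on simulated data with planted changes in a small share of genes. That setting does not bear on the choice of scaling. The 9 genes and the gene lists were chosen with earlier results of these data known, and list counts are descriptions. Named genes are the 9, genes of the lists that passed or define their list, and the 5 genes of most similar pattern, of which 4 are given. Some results are not reported here. Positions came from GENCODE version 44 and promoter windows from RefSeq (GRCh38.p14). Python 3.11.15 with pandas 2.3.3 and matplotlib 3.10.9 made the figures.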

Additional observations from a re-analysis of the deposited data

How the results depend on the processing

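Calls were unchanged in count with RLE factors, filterByExpr and DESeq2, while scaling to library totals or FPKM moved them. Against Ctrl, the 5 lower genes became 2 with library totals and 2 with limma at either pseudocount, and the 1 higher gene became 5, 2 (limma, 0.1) and 3 (limma, 1). Against Anti, the 5 lower genes became 3 under the same 3 alternatives. In Anti against Ctrl, the 4 lower became 2 with limma, and the 2 higher became 4 with library totals. The 2-fold rule left 0 in either direction in every comparison. With 1 replicate left out, higher genes ranged from 0 to 1 against Ctrl (0 without Ctrl replicate 2) and from 1 to 2 in Anti against Ctrl (1 without Anti replicate 2).

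Signs turned as follows, in log2 fold change with library totals, limma at 0.1 and limma at 1. Against Ctrl, HLA-C was 0.056, 0.030 and 0.029, HLA-E 0.095, 0.069 and 0.068, and B2M 0.091, 0.065 and 0.064. In Anti against Ctrl, B2M was 0.096, 0.082 and 0.082 (0.016 with all 9 samples), TAP1 0.058, 0.044 and 0.043, and HLA-B 0.0074 with library totals alone. Leaving out replicates gave ranges of -0.021 to 0.023 for B2M and -0.015 to 0.021 for TAPBP in Anti against Ctrl, and of -0.22 to 0.049 for NLRC5 in CRLM1-OE against Anti. NLRC5 missed the threshold with limma at 0.1 against Ctrl (0.45, adjusted p 0.0693), and in Anti against Ctrl with limma at either pseudocount. The scaling is the choice that changed most of these, and which scaling is nearer to RNA per cell was not tested.

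The replicate numbers did not pair the samples, since residuals of same-numbered samples over 11702 genes correlated between -0.021 and 0.068, and those of other pairs between -0.076 and 0.046. Under the replicate block, 6 genes were lower against Ctrl, B2M passing at -0.050 (adjusted p 0.027), and no other call of the 9 genes changed. With all 9 samples in 1 fit 6 genes were also lower against Ctrl, B2M passing at -0.051 (adjusted p 0.0392). Depth limits NLRC5, PSMB8 and TAPBPL, and not the heavy chains.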

Other observations

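Interferon-stimulated genes outside the class I pathway were also measured. Of 10 interferon-stimulated reference genes, 4 passed as lower and 3 as higher in CRLM1-OE against Ctrl, 6 and 1 against Anti, and 1 and 5 in Anti against Ctrl. Of the 11702 genes, 67.9%, 74.2% and 53.9% passed in either direction in these comparisons, in that order. IFIT1, a sensor of foreign RNA caps, had 1.60 to 2.23 CPM in CRLM1-OE, 3.56 to 4.13 in Ctrl and 8.81 to 9.90 in Anti, and IFIT3, its partner, 1.92 to 2.42, 4.58 to 5.69 and 10.2 to 11.2. The groups of both genes did not overlap, with Anti highest, as for ERAP1. Not all genes of this list had that order. IFI6 was highest in CRLM1-OE, with a mean of 25.8 CPM against 15.9 in Ctrl and 16.9 in Anti. IFITM1 was highest in Ctrl, with a mean of 3.59 CPM against 1.13 in CRLM1-OE and 2.02 in Anti. ISG15, a ubiquitin-like modifier, had 356 to 361 CPM in CRLM1-OE, 305 to 330 in Ctrl and 437 to 453 in Anti.

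Interferon ligands were at the edge of detection. Of 9 such genes 5 were listed, and none passed against Ctrl in edgeR, where 2 had an unadjusted p under 0.05. IFNL1 had 0 counts in each CRLM1-OE sample, at most 4 in Ctrl and at most 15 in Anti. It passed as lower against Anti and as higher in Anti against Ctrl.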
